A study of Homo sapiens with 54 samples.

Results

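*TRA2B* knockout (KO) was compared with Control KO in LN229, an established glioma cell line, using 3 RNA-seq libraries of each condition out of the 54 libraries of the series. All 6 libraries came from cells that stably overexpressed luciferase (Luc) and were collected 7 days after transduction with lentivirus carrying Cas9 and a guide against *TRA2B* or against a control locus. The control guides also cut the genome, so the groups share Cas9, a double-strand break and the luciferase transgene. The members of the comparison were chosen from the sample labels, and 18490 of the 55906 genes listed were tested, namely those with at least 1 TPM, an abundance relative to all transcripts of a library and corrected for their length, in at least 4 of the 15 LN229 libraries. The other 9 LN229 libraries, Luc *TRA2A* KO and *TRA2B* overexpression (TRA2B-OE) with Control KO or *TRA2A* KO, entered the same fit and are used here for comparison. The labels do not say whether the replicates are separate cultures, so p-values measure the spread between these libraries, which may be technical.

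*TRA2A* and *TRA2B* are paralogous SR-like splicing factors that bind purine-rich exonic enhancers and promote the inclusion of exons. Both genes carry a conserved poison exon, whose inclusion gives transcripts that are not translated into full-length protein, and TRA2 proteins promote inclusion of these exons in their own and in each other's transcripts. The level of each mRNA is therefore set in part by the amount of both proteins.

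The study's guide list holds 3 Cas9 guides for *TRA2B* knockout beside guides for control loci, and it does not say which of them were used for the LN229 libraries. The *TRA2B* guides and the control guide for ROSA26 are shown because the place of the cut bears on how the *TRA2B* reads can be interpreted. Each is printed 5′ to 3′ in lower case with the adjoining PAM, read from the genome, in capitals.
*TRA2B* sg2: tgacgcctgcgagtagacatGGG
*TRA2B* sg4: gtggaagtgctcacggatcgGGG
*TRA2B* sg5: aatactccaagacaacagttAGG
ROSA26 sg1: gagtcgcttctcgattatgggCGG

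Each of these guides matched 1 place in GRCh38 exactly. In *TRA2B*, sg4 lay at chr3:185926693-185926712 on the minus strand in exon 2, sg2 at chr3:185925477-185925496 on the plus strand in exon 3, and sg5 at chr3:185923950-185923969 on the plus strand in exon 4, all in coding sequence of the canonical transcript of Gencode v44. The ROSA26 guide lay at chr3:9396264-9396284 on the minus strand, in exon 1 of the long noncoding RNA *THUMPD3-AS1*. A cut in coding sequence can disrupt the protein without removing the mRNA, and the TPM values count edited and unedited transcripts together. The host gene of the ROSA26 guide did not pass the test: *THUMPD3-AS1* was at 40.4, 34.01 and 36.4 TPM in Control KO and 38.2, 38.8 and 37.3 TPM in *TRA2B* KO.

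One library has to be described before the results. Luc Control KO replicate 1 lay close to the *TRA2B* KO libraries for most genes that differed between *TRA2B* KO and the other 2 controls. Along the 701 differentially expressed genes (DEGs, adjusted p under 0.05 and absolute log2 fold change above 1) found without it, with the mean of Control KO replicates 2 and 3 set to 0 and the mean of *TRA2B* KO to 1, its median position was 0.84, with an interquartile range of 0.66 to 1.00. For 606 of these genes (86.4%) it was nearer to the knockout, for 245 its TPM lay within the range of the 3 knockout libraries, and for 70 beyond it. The gene choice fixes the positions of the other 5 libraries, so only those of libraries outside the comparison, and that of replicate 1, carry information. The replicate 1 library of TRA2B-OE Control KO stood at 0.48, while the other 2 TRA2B-OE controls stood at -0.045 and -0.097 and the 3 *TRA2A* KO libraries between -0.21 and 0.034. Control replicate 1 took 7.97% of its TPM from mitochondrial genes, against 6.11% and 6.85% in the other controls and 7.53 to 8.0% in *TRA2B* KO. Why this library lay there was not tested, and the counts of genes called are given with and without it.

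**Figure D1:**
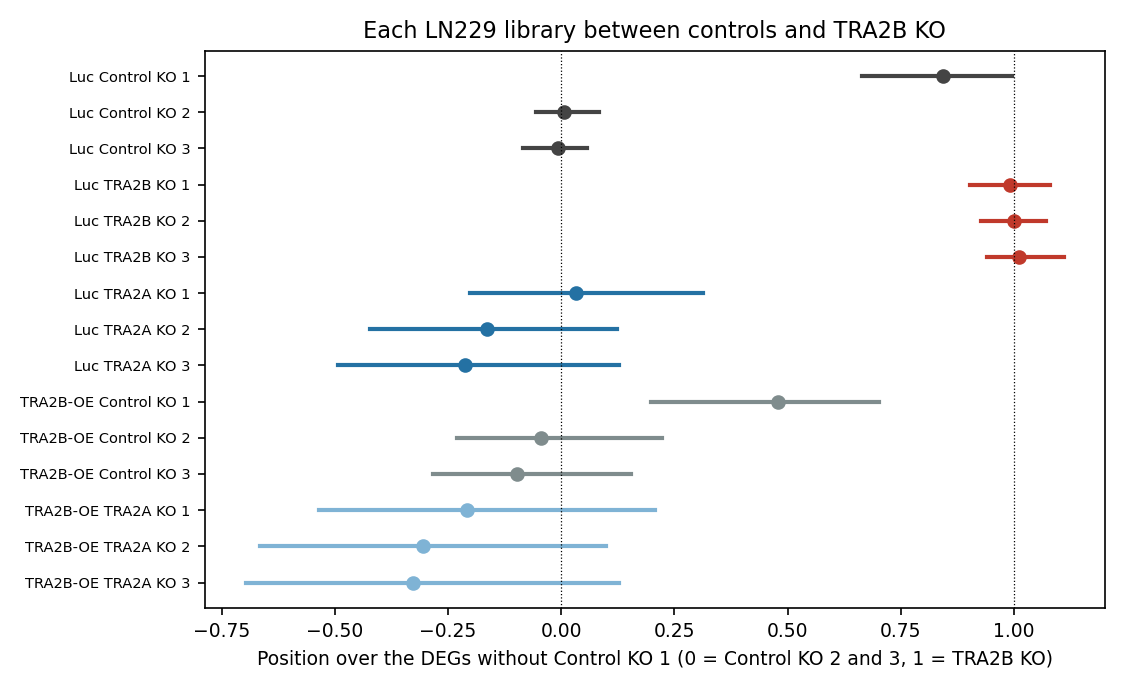
Position of each of the 15 LN229 libraries over the 701 DEGs found without Luc Control KO replicate 1, where 0 is the mean of Control KO replicates 2 and 3 and 1 the mean of *TRA2B* KO on the log2 scale. Points are medians over genes and bars the interquartile range; Luc Control KO 1 sits at 0.84 and TRA2B-OE Control KO 1 at 0.48, apart from the other libraries of their groups.

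On the targeted gene and its paralog, control replicate 1 lay nearer to the other controls than to the knockout, at positions of 0.30 for *TRA2B* and -0.15 for *TRA2A*. *TRA2B* was at 201.5, 231.7 and 233.6 TPM in Control KO and at 142.6, 149.8 and 147.6 TPM in *TRA2B* KO. All 3 knockout libraries were below all 3 controls, with a mean of 147 ± 3.7 against 222 ± 18 TPM (SD, n = 3), which is 66.0% of the control. The log2 fold change was -0.64 with a standard error (SE) of 0.12 and an adjusted p of 0.034 in limma, and -0.71 with an adjusted p of 0.0049 without control replicate 1. The call was lost when any other of the 6 libraries was left out, with adjusted p between 0.071 and 0.17. The exact two-sided permutation test of mean TPM gave p = 0.1, the smallest value that 3 libraries against 3 allow. *TRA2B* mRNA was thus still measured in cells carrying the knockout guide, in contrast to the levels under CRISPR interference, which silences the promoter, where *TRA2B* knockdown (KD) left 13.3 ± 0.86 of 137 ± 3.2 TPM in A549 and 9.75 ± 1.4 of 92.2 ± 11.3 TPM in NCI-H23 (SD, n = 3). In LN319, the other glioma line treated with Cas9, *TRA2B* KO left 30.8 ± 1.6 of 87.6 ± 3.6 TPM. These 4 values come from tables made separately and were not tested against each other. Per the study's methods, the knockdown cells already expressed the silencing protein stably and were collected fewer days after transduction than the knockout cells.

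*TRA2A* rose in LN229 *TRA2B* KO. It was at 105.5, 111.5 and 110.9 TPM in the controls and at 171.2, 167.1 and 170.1 TPM in the knockout. The groups were far apart relative to their spread, 169 ± 2.1 against 109 ± 3.3 TPM (SD, n = 3), with a log2 fold change of 0.59 (SE 0.069, adjusted p = 0.0055; exact permutation p = 0.1). This is one of 3 genes, beside *FOSB* and *CKB*, that passed the test whichever of the 6 libraries was left out, with adjusted p no higher than 0.042 for *TRA2A*. Neither *TRA2A* (adjusted p = 0.17) nor *FOSB* (adjusted p = 0.19) passed when the 6 libraries were fitted alone, without the other LN229 libraries to estimate the spread, a fit that gave 0 DEGs in limma (3530 genes at unadjusted p under 0.05).

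The estimate had the same sign under *TRA2B* KD in the lung cancer lines, and the opposite sign in LN319. Adjusted p called 0.160% of genes higher and 0.0368% lower in NCI-H23, and 0.280% and 0.0610% in A549. In LN319 calls were far more common, with 18.6% of genes called higher and 24.0% lower. In NCI-H23, *TRA2A* went from 105 ± 2.5 to 156 ± 5.9 TPM (log2 fold change 0.46, adjusted p = 0.026), and in A549 from 75.1 ± 5.1 to 97.4 ± 2.9 TPM (log2 fold change 0.47, adjusted p = 0.38). In LN319 it went from 107 ± 5.6 to 90.5 ± 6.2 TPM (log2 fold change -0.35, adjusted p = 0.0040), with all 3 knockout libraries below all 3 controls. Within LN229, *TRA2A* stood below the Luc controls in the *TRA2A* KO libraries, at 74.2, 67.1 and 65.0 TPM, and in TRA2B-OE Control KO, at 84.3, 74.8 and 81.5 TPM, where *TRA2B* reached 702.6 to 899.6 TPM. Over the 5 LN229 conditions, the highest *TRA2A* level was thus found with the lowest *TRA2B* level.

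**Figure D2:**
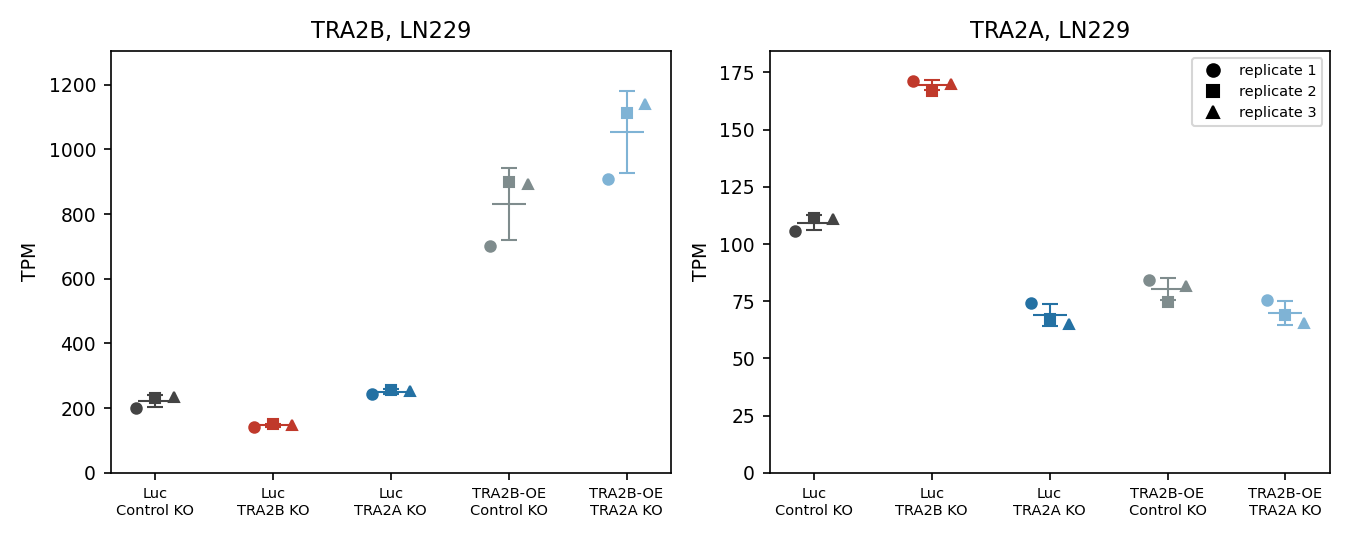
TPM of *TRA2B* (left) and *TRA2A* (right) in each LN229 library by condition, on linear axes from 0; symbols are replicates, and the horizontal mark and bars are the mean ± SD of 3 libraries. In *TRA2B* KO, *TRA2B* sits at 142.6 to 149.8 TPM and *TRA2A* at 167.1 to 171.2 TPM, and neither overlaps with Control KO.

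With all 6 libraries, 25 genes were DEGs, 12 higher (0.0649%) and 13 lower (0.0703%) in *TRA2B* KO, which together is 0.135% of those tested. Adjusted p alone called 105 genes (0.568%), 42 higher and 63 lower, of which 76 are protein-coding, and 4302 genes had an unadjusted p under 0.05. All 105 were also called, in the same direction, without control replicate 1. In each of them the 3 knockout libraries lay outside the range of the 3 controls, a separation found in 23.6% of all genes tested (14.3% higher and 9.31% lower). Without control replicate 1, 701 genes were DEGs (374 higher, 2.02%, and 327 lower, 1.77%, together 3.79%) and adjusted p alone called 3812 (1648 higher and 2164 lower, 20.6%). Leaving out another library took the DEGs down: 1 was left without control replicate 2, 2 without control replicate 3, and 16, 2 and 1 without *TRA2B* KO replicates 1, 2 and 3. Of the 25 DEGs, 24 were among the 701, and 10 were protein-coding; the others were clone-named transcripts, pseudogenes, small RNAs and long noncoding RNAs.

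*FOS* and *FOSB*, immediate early genes whose products are subunits of the AP-1 transcription factor, rose in *TRA2B* KO. *FOS* was at 27.3, 10.8 and 10.2 TPM in Control KO, at 74.0, 74.5 and 69.3 TPM in *TRA2B* KO and at 9.60, 7.57 and 5.48 TPM in *TRA2A* KO. Control replicate 1 had the highest control value, midway on the log2 scale to the knockout, but the groups did not overlap (log2 fold change 2.28, SE 0.37, adjusted p = 0.025, and 2.73 with adjusted p = 0.0011 without it). The *FOS* call was lost when any other library was left out, with adjusted p between 0.058 and 0.14. *FOSB* was at 1.79, 2.48 and 2.50 TPM in the controls and 5.58, 6.45 and 6.86 TPM in the knockout. Here control replicate 1 was the lowest control, and the log2 fold change was 1.41 (SE 0.16, adjusted p = 0.0055) with it and 1.26 without it. Their partner *JUN* took another course: it was at 81.9, 130 and 128 TPM in the controls and 82.5, 81.4 and 83.2 TPM in the knockout, with adjusted p = 0.17 with all libraries and 0.016 (log2 fold change -0.69) without control replicate 1.

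*STX16-NPEPL1*, a readthrough transcript of adjacent genes, was the remaining rising protein-coding DEG that held at least 2 TPM in the higher group. It went from 9.73, 7.25 and 10.6 TPM to 20.0, 21.4 and 18.7 TPM (log2 fold change 1.09, SE 0.15, adjusted p = 0.012). It shares exons with *STX16* and *NPEPL1*, so its value depends on how reads were divided between them. Without control replicate 2, *TRA2B* KO replicate 2 or *TRA2B* KO replicate 3 it did not pass, with adjusted p up to 0.080.

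The protein-coding DEGs that fell and held at least 2 TPM in the higher group were *IL7R*, *LETM2*, *FES* and *NGFR*. *IL7R*, the interleukin-7 receptor chain, was at 7.0, 21.3 and 23.8 TPM in the controls, 3.83, 4.38 and 5.48 TPM in *TRA2B* KO, and 35.1, 36.3 and 41.8 TPM in *TRA2A* KO. Its control replicate 1 lay near the knockout without reaching it, and the log2 fold change was -1.78 (SE 0.35, adjusted p = 0.046) with that library and -2.34 (adjusted p = 0.00014) without. *NGFR*, the low-affinity neurotrophin receptor, was at 92.6, 147 and 158 TPM against 59.3, 60.5 and 57.4 TPM, a log2 fold change of -1.17 (SE 0.20, adjusted p = 0.029). *FES*, a cytoplasmic tyrosine kinase, differed by about as much with control replicate 1 as without it: 4.31, 4.39 and 3.81 TPM against 2.03, 1.28 and 2.34 TPM, with log2 fold changes of -1.19 and -1.16 (adjusted p = 0.036 and 0.010). *LETM2*, a mitochondrial inner membrane protein, was at 5.34, 8.19 and 10.1 TPM against 3.62, 3.29 and 3.23 TPM (log2 fold change -1.19, adjusted p = 0.037). Each of these 4 calls was lost when any library other than control replicate 1 was left out, with adjusted p between 0.058 and 0.22.

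*CKB* and *CD68* changed by less, and passed in 6 and 5 of the 6 leave-one-out fits. *CKB* was chosen by this measure, so its count is not a separate result. *CKB*, brain-type creatine kinase, named here after its values were seen because it passed the test in every leave-one-out fit, was at 72.6, 66.4 and 66.7 TPM in Control KO and 45.7, 46.3 and 46.1 TPM in *TRA2B* KO. Control replicate 1 was its highest control, and *TRA2A* KO, at 69.6 to 76.6 TPM, overlapped the controls (log2 fold change of *TRA2B* KO against Control KO -0.62, SE 0.071, adjusted p = 0.0055). *CD68*, a lysosomal membrane protein used as a macrophage marker and expressed by this line, was at 15.5, 20.3 and 21.6 TPM against 10.3, 10.5 and 9.16 TPM, with a log2 fold change of -0.96 (SE 0.11, adjusted p = 0.0055). Among the leave-one-out fits *CD68* missed the threshold only without control replicate 2, at adjusted p = 0.053. It was not called when the 6 libraries were fitted alone, and the value of *CKB* in that fit is not given here.

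**Figure D3:**
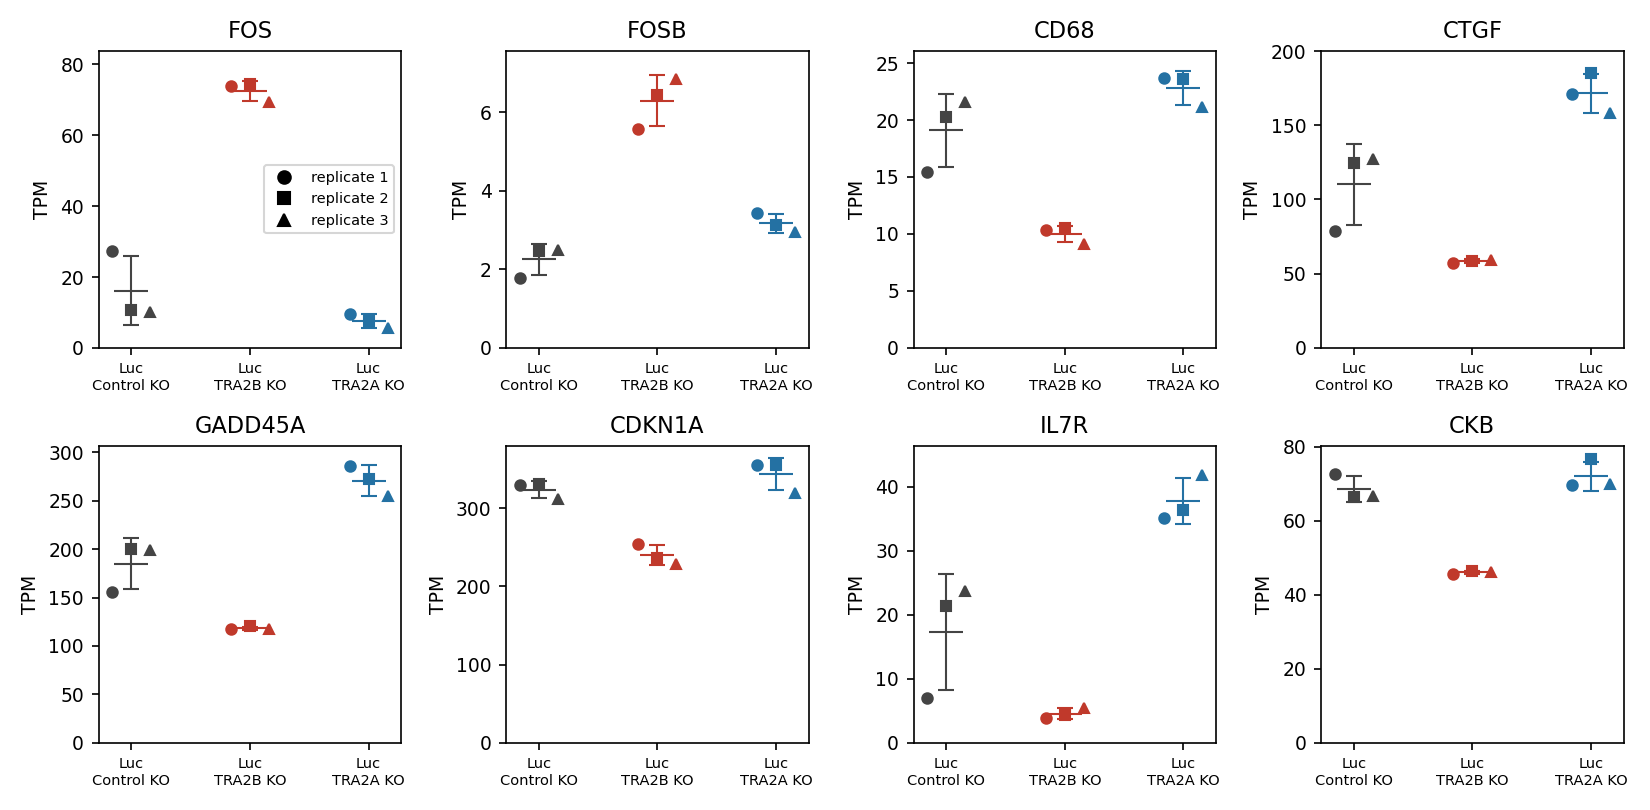
TPM of 8 genes called with all 6 libraries, in Luc Control KO, *TRA2B* KO and *TRA2A* KO, on linear axes from 0; symbols are replicates and bars the mean ± SD of 3 libraries. Control replicate 1 lies toward the knockout for *FOS*, *CTGF*, *GADD45A* and *IL7R*, as at 7.0 TPM for *IL7R* against 21.3 and 23.8, among the other controls for *CDKN1A*, and away from the knockout for *FOSB* and *CKB*.

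Among 24 tested p53 targets, 4 fell with all 6 libraries and 0 rose in limma (0.341% and 0.227% of all genes were called lower and higher), and 11 lower and 1 higher had an unadjusted p under 0.05. The median log2 fold change of the list was -0.13, beside 0.0056 over all genes, and -0.050 without control replicate 1, beside 0.0081. *CDKN1A*, the p21 inhibitor of cyclin-dependent kinases, was at 329, 330.3 and 312 TPM in the controls and 254, 236 and 229 TPM in the knockout. Control replicate 1 lay among the controls (log2 fold change -0.48, SE 0.072, adjusted p = 0.019, and -0.47 without that library). *GADD45A*, a growth arrest and DNA damage response gene, was at 155, 201 and 199.7 TPM against 118, 120.2 and 117 TPM (log2 fold change -0.68, adjusted p = 0.025), and *AEN*, an apoptosis-associated nuclease, at 63.7, 82.7 and 89.4 TPM against 49.4, 51.5 and 51.7 TPM (-0.66, adjusted p = 0.035). *PLK3*, a polo-like kinase of the stress response, was at 12.9, 14.3 and 15.6 TPM against 9.12, 11.3 and 10.98 TPM (-0.49, adjusted p = 0.042). *GADD45A*, *AEN* and *PLK3* lost their calls when any library other than control replicate 1 was left out, and *CDKN1A* kept its call only without that library or *TRA2B* KO replicate 1, with adjusted p of up to 0.19 among the 4 genes. Without control replicate 1, 6 of the 24 fell (11.7% of all genes), among them *MDM2*, the ubiquitin ligase of p53 (217, 209 and 212.5 TPM against 153, 180.2 and 178 TPM, log2 fold change -0.35, adjusted p = 0.031), and *TP53INP1* rose.

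*ATF3*, *CXCL8*, *TIMP3* and *KRT7* also fell with all 6 libraries. *ATF3*, a stress-induced transcription factor of the ATF family, was at 34.7, 40.1 and 38.1 TPM against 22.9, 21.1 and 22.8 TPM (log2 fold change -0.80, SE 0.11, adjusted p = 0.015). *CXCL8*, the chemokine interleukin-8, was at 55.6, 56.8 and 55.4 TPM against 41.2, 36.1 and 38.6 TPM (-0.58, adjusted p = 0.032), and its control replicate 1 lay with the other controls. *TIMP3*, an inhibitor of metalloproteinases, was at 414.5, 472 and 492 TPM against 341, 356 and 354 TPM (-0.43, adjusted p = 0.025). *KRT7*, a keratin, was at 22.5, 36.5 and 34.2 TPM against 18.01, 18.05 and 17.99 TPM (-0.80, adjusted p = 0.041). *ATF3* and *CXCL8* passed without control replicate 1 and without *TRA2B* KO replicate 1 alone, *TIMP3* and *KRT7* without control replicate 1 alone, and adjusted p reached 0.19 in the other leave-one-out fits.

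Few other splicing factor genes passed the test with all 6 libraries, a fit in which 0.227% of all genes were called higher and 0.341% lower. *HNRNPA3*, an RNA-binding protein of the hnRNP A/B family, was the 1 of 18 hnRNP genes called, from 191, 186 and 194 TPM to 231, 250.4 and 249 TPM (log2 fold change 0.31, SE 0.044, adjusted p = 0.015). Control replicate 1 was in the middle of the controls, and the call was lost in 4 of the 6 leave-one-out fits, with adjusted p up to 0.098. The gene has processed copies in the genome among which reads can be divided, so its value is uncertain. Of 11 SR protein genes 0 were called (limma; 1 higher and 1 lower at unadjusted p under 0.05), and 3 were without control replicate 1: *SRSF2* lower (407, 529 and 516 TPM against 386, 397 and 352 TPM, log2 fold change -0.51), *SRSF11* higher (0.25) and *SRSF8* higher (0.42). *CLK4*, a kinase that phosphorylates SR proteins, was at 29.0, 20.7 and 20.4 TPM against 30.4, 32.0 and 33.4 TPM, with adjusted p = 0.097 and, without control replicate 1, 0.0038. Among 19 NMD factors and snoRNA host genes, whose spliced transcripts are degraded by nonsense-mediated decay, 0 were called with all libraries (limma; 1 higher and 5 lower at unadjusted p under 0.05) and 5 fell without control replicate 1, the host genes *SNHG1*, *SNHG12*, *SNHG15*, *GAS5* and *ZFAS1*. In that fit 8.91% of all genes were called higher and 11.7% lower.

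The genes whose splicing the study followed by RT-PCR were measured here only as total TPM. None of *CHEK1*, *CEP192*, *OFD1* and *CNTRL* passed with all 6 libraries in limma (adjusted p = 0.20, 0.51, 0.53 and 0.24; 1 of the 4 at unadjusted p under 0.05). *CHEK1*, the checkpoint kinase, was at 20.8, 40.6 and 33.5 TPM in the controls and 23.1, 21.2 and 22.3 TPM in the knockout. Its control replicate 1 lay below all knockout libraries, and without it *CHEK1* was lower in the knockout (log2 fold change -0.78, adjusted p = 0.015).

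The calls in the cell cycle and interferon groups depended on control replicate 1. Of all genes 0.227% were called higher and 0.341% lower with that library included. With all 6 libraries, 0 of 54 G2/M genes were called in limma (0 higher and 10 lower at unadjusted p under 0.05), at a median log2 fold change of -0.29. Over all 18490 genes, 4302 passed that unadjusted threshold in either direction. Without that library 40 fell and 0 rose (47 lower and 0 higher unadjusted), at a median of -0.52, beside 11.7% of all genes called lower and 8.91% called higher. Control replicate 1 itself was below the knockout on this list: its median difference from the other controls was -0.77, against -0.57, -0.55 and -0.51 in the 3 *TRA2B* KO libraries, and for 50 of the 54 genes it was at or past the knockout mean. *CDK1*, the cyclin-dependent kinase of mitotic entry, was at 79.2, 160.4 and 156 TPM in the controls and 89.1, 89.3 and 96.5 TPM in the knockout. *UBE2C*, the ubiquitin-conjugating enzyme of the anaphase-promoting complex, was at 276, 587 and 558 TPM against 346, 324 and 330 TPM. *AURKB*, a mitotic kinase, was at 58.8, 137 and 143 TPM against 75.4, 72.1 and 65.1 TPM. In all 3 genes control replicate 1 was the lowest of the 6 libraries.

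S phase genes followed the same course. None of 42 was called with all libraries in limma (0 higher and 7 lower at unadjusted p under 0.05, median log2 fold change -0.39). Over all 18490 genes, 4302 passed that unadjusted threshold in either direction. Without control replicate 1, 28 S phase genes fell and 0 rose (median -0.63), beside 11.7% of all genes called lower and 8.91% called higher. The list median of control replicate 1 was -0.70, against -0.65, -0.62 and -0.65 in the knockout. *RRM2*, a subunit of ribonucleotide reductase, was at 161, 372 and 364.5 TPM in the controls and 174, 193 and 203 TPM in the knockout, and *PCNA*, the sliding clamp of DNA replication, at 266, 402 and 385 TPM against 278, 257 and 256 TPM. A lower level in these bulk samples can be fewer cycling cells or less of the RNA per cell, which cannot be told apart.

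Interferon-stimulated genes were higher in *TRA2B* KO than in control replicates 2 and 3, with wide spread among the knockout libraries. Of 30 tested, 0 were called with all libraries in limma (24 higher and 0 lower at unadjusted p under 0.05, median log2 fold change 0.92). Over all 18490 genes, 4302 passed that unadjusted threshold in either direction. Without control replicate 1, 21 of the 30 rose and 0 fell (median 1.25), beside 8.91% of all genes called higher and 11.7% called lower. The list medians of the knockout replicates were 0.62, 1.46 and 1.84, and that of control replicate 1 was 0.92, above *TRA2B* KO replicate 1. *IFITM1*, a membrane protein that restricts viral entry, was at 48.4, 12.3 and 8.91 TPM in the controls, 41.2, 74.6 and 113.5 TPM in *TRA2B* KO and 9.13, 4.22 and 4.34 TPM in *TRA2A* KO. *IFIT1*, which binds foreign RNA, was at 10.2, 2.39 and 2.00 TPM against 7.06, 15.7 and 21.1 TPM. In both genes *TRA2B* KO replicate 1 was below control replicate 1, so the groups overlapped.

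Targets of YAP and TEAD, the transcription factors of the Hippo pathway, had a negative median in *TRA2B* KO, and the median of control replicate 1 did not reach the knockout, although it was at or past the knockout mean for 5 of the 21 genes. Its median difference from the other controls was -0.50, against -0.74, -0.72 and -0.75 in *TRA2B* KO and 0.45 to 0.57 in *TRA2A* KO. Of 21 tested, 1 fell with all libraries (14 at unadjusted p under 0.05; median log2 fold change -0.55), and 14 fell and 1 rose without control replicate 1 (median -0.70). Of all genes 0.341% were called lower with all libraries and 11.7% without that library. *CTGF*, a matricellular protein, was the one called with all 6, at 78.6, 124 and 128 TPM against 57.2, 58.7 and 59.6 TPM (log2 fold change -0.92, SE 0.16, adjusted p = 0.031), and it lost the call when any other library was left out, with adjusted p up to 0.16. *CYR61*, its relative, was at 55.1, 132 and 132 TPM against 38.9, 41.6 and 39.9 TPM and 212, 244 and 213.5 TPM in *TRA2A* KO (adjusted p = 0.057, and 0.0011 without control replicate 1). In both genes all 3 knockout libraries were below all 3 controls and all 3 *TRA2A* KO libraries above them.

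**Figure D4:**
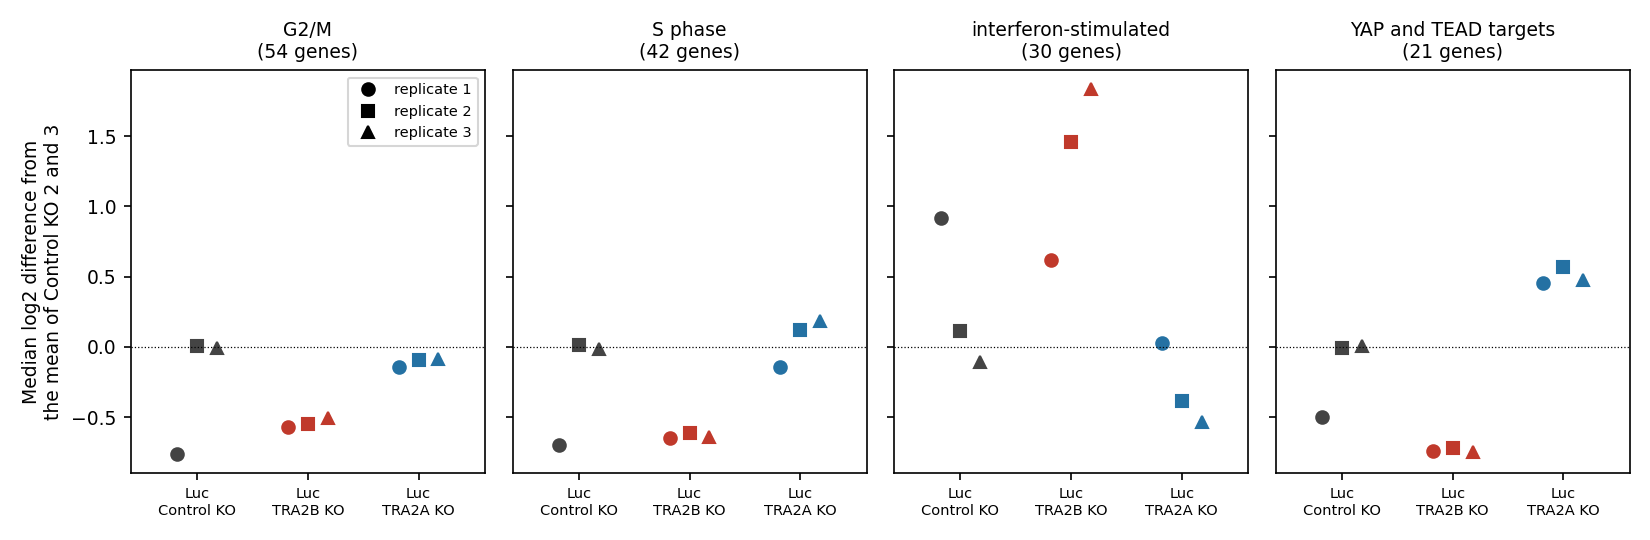
Median log2 difference of each library from the mean of Luc Control KO replicates 2 and 3 for 4 gene lists (G2/M, 54 genes; S phase, 42; interferon-stimulated, 30; YAP and TEAD targets, 21), in Control KO, *TRA2B* KO and *TRA2A* KO; symbols are replicates. Control replicate 1 is at -0.77 for G2/M, below the 3 *TRA2B* KO libraries, and at -0.50 for YAP and TEAD targets, above them.

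Many large single-gene differences found without control replicate 1 were likewise shared by that library. *LGI4*, a secreted glial protein, was at 13.8, 2.29 and 1.65 TPM in the controls and 15.4, 15.1 and 13.8 TPM in the knockout, with a log2 fold change of 2.81 (adjusted p = 0.0084) without control replicate 1 and adjusted p = 0.15 with it. *MYCN*, a transcription factor of the MYC family, was at 3.65, 0.688 and 0.992 TPM against 4.76, 4.28 and 4.36 TPM, and *TLX1*, a homeobox factor, at 20.4, 6.55 and 5.0 TPM against 28.9, 26.4 and 33.4 TPM. *S100B*, a glial calcium-binding protein, was at 834, 276 and 255.5 TPM in the controls and at 1035, 949.6 and 937 TPM in the knockout. Among genes that were lower, *CPA4*, a carboxypeptidase, was at 9.79, 56.9 and 52.3 TPM against 8.09, 7.90 and 9.70 TPM, *THBS1*, the matrix protein thrombospondin 1, at 130.5, 528 and 568 TPM against 113, 130.2 and 129.8 TPM, and *PTHLH*, parathyroid hormone-related protein, at 11.3, 43.4 and 44.8 TPM against 9.64, 9.79 and 8.97 TPM. In each of these 7 genes control replicate 1 was closer to the knockout than to the other controls.

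Most of the remaining lists had calls in both directions. Without control replicate 1, where 8.91% of all genes were called higher and 11.7% lower, extracellular matrix genes gave 9 higher and 9 lower of 34, sterol and fatty acid synthesis 8 and 3 of 27, ATF4 and ER stress genes 3 and 10 of 24, immediate early genes 5 and 9 of 24, hypoxia genes 3 and 6 of 20 and inflammatory cytokines 0 and 7 of 15 (0 higher in limma; 2 higher at unadjusted p under 0.05). The cytokines were thus called in one direction and the other 5 lists in both. With all 6 libraries these lists gave at most 2 calls each, beside 0.227% of all genes called higher and 0.341% lower. None of the 13 mitochondrially encoded genes was called in either fit (limma; 0 and 1 at unadjusted p under 0.05). Of 14 listed markers of glioma and astrocytes 12 passed the filter. Among them *VIM* was at 2594 to 3258 TPM, *NES* at 246 to 286 TPM and *GFAP* at 2.17 to 3.48 TPM over the 6 libraries. With all 6 libraries 0 of the 12 were called (limma, 3 higher and 3 lower at unadjusted p under 0.05). Without control replicate 1, 2 rose and 3 fell. Of the 17 markers of other cell types 7 passed the filter, and their summed level was 204 to 429 TPM in Control KO, highest in replicate 1, and 417 to 436 TPM in *TRA2B* KO. With all 6 libraries 1 of these 7 rose and 2 fell, *CD68* and *KRT7*, beside 0.227% and 0.341% of all genes. The list median log2 fold change was 0.044. Without control replicate 1, 2 rose and 2 fell, at a list median of 0.31. *SNAP25*, a synaptic protein, rose from 19.3, 16.3 and 16.7 TPM to 24.2, 25.8 and 26.9 TPM (log2 fold change 0.51, adjusted p = 0.032, and up to 0.17 when a library other than control replicate 1 was left out). The values of *SNAP25*, *CD68* and *KRT7* do not account for the higher sum, which comes from listed markers not named here. The part of other cell types in these results was not tested.

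*TRA2B* KO was then compared with *TRA2A* KO, a contrast whose fold changes use no control library, although the controls enter the estimate of the spread. It gave 1371 DEGs, 801 higher (4.33%) and 570 lower (3.08%) in *TRA2B* KO, together 7.41%, and adjusted p alone called 6296 genes (2973 higher and 3323 lower, 34.1%). The smallest p belonged to *TRA2A*, at 171.2, 167.1 and 170.1 TPM against 74.2, 67.1 and 65.0 TPM (log2 fold change 1.24, SE 0.069, adjusted p = 2.84e-06), and *TRA2B* itself was lower (-0.83, adjusted p = 0.00059). *ATF3* followed, at 22.9, 21.1 and 22.8 TPM against 59.6, 61.0 and 66.7 TPM (-1.54, adjusted p = 4.31e-05). *ZNF699*, a zinc finger protein, was at 2.08, 2.77 and 2.37 TPM against 11.4, 11.7 and 11.03 TPM (-2.27), and *CITED4*, a transcriptional coregulator, at 59.0, 57.7 and 56.3 TPM against 20.2, 23.1 and 17.1 TPM (1.47). *DLC1*, *TPM1*, *GADD45A* and *CD68* were lower and *FARP1* and the transcript *RP11-282O18.3* higher in *TRA2B* KO, with absolute log2 fold changes from 0.73 to 1.80. In all 10 genes the knockouts did not overlap, and Luc Control KO lay between them for all but *CITED4*, where it overlapped *TRA2B* KO, and *CD68*, where it overlapped *TRA2A* KO.

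The gene lists moved in this contrast too. Of the interferon-stimulated genes 25 of 30 were higher and 0 lower in *TRA2B* KO than in *TRA2A* KO (limma; 26 and 0 at unadjusted p under 0.05), beside 16.1% higher and 18% lower of all genes. S phase genes gave 33 of 42 lower and 0 higher (38 and 0 unadjusted), G2/M genes 15 of 54 lower and 0 higher (34 and 1 unadjusted), YAP and TEAD targets 17 of 21 lower and 1 higher, and p53 targets 13 of 24 lower and 2 higher. Median log2 fold changes were 1.41, -0.67, -0.45, -1.02 and -0.27 in the same order. The 3 Luc *TRA2A* KO libraries lay near control replicates 2 and 3 for G2/M, with list medians from -0.14 to -0.083, and above them for YAP and TEAD targets. A low G2/M median was not particular to *TRA2B* KO. It was -0.32, -0.45 and -0.56 in TRA2B-OE *TRA2A* KO, and -0.67, -0.24 and -0.24 in TRA2B-OE Control KO.

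LN319 *TRA2B* KO gave a comparison in separate libraries of another cell line. The design was the same, with luciferase overexpression, Cas9 lentivirus and collection after 7 days, so effects of that design can recur in both lines. Of the 105 genes called with all 6 LN229 libraries, 96 were tested in LN319, and 78 (81.2%) had the same sign there, beside 62.1% over all genes tested in both lines. The set of all genes includes those with estimates near 0. In LN319 54 of the 96 (56.2%) were called in the same direction, beside 32.4% over all genes, and 5 in the opposite one; the 54 are 0.72% of the 7504 genes called in LN319 that were tested in LN229. By direction these were 26 of 42 higher genes and 28 of 54 lower ones. For the 701 DEGs without control replicate 1, 497 were tested in LN319, with 70.2% of the same sign and 37.6% called in the same direction, against 61.6% and 31.8% over all genes. Among the genes described above, *IL7R* (log2 fold change in LN319 -0.91), *LETM2* (-0.67), *TIMP3* (-0.67), *KRT7* (-0.76), *CDKN1A* (-0.57), *GADD45A* (-0.57), *AEN* (-0.27), *CD68* (-0.39), *FOSB* (0.36) and *STX16-NPEPL1* (1.76) were called in the same direction in LN319. *FOS* (-0.080, adjusted p = 0.72) and *CKB* (0.053, adjusted p = 0.63) did not pass there. *TRA2A* (-0.35) and *HNRNPA3* (-0.47) were called in the opposite direction. *PLK3* (0.20) and *NGFR* (0.12) had the opposite sign and did not pass. LN319 values of the other genes described above are not listed here.

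The list counts in LN319 were 37 of 54 G2/M genes and 19 of 42 S phase genes lower, with 3 and 4 higher, beside 24.0% and 18.6% of all genes. Interferon-stimulated genes gave 7 of 30 higher and 0 lower, and YAP and TEAD targets 8 of 20 lower and 1 higher. These 4 lists had medians of the same sign as in LN229 without control replicate 1, though the share of interferon-stimulated genes called higher is near that of all genes. Other lists took another course: p53 targets gave 6 of 23 higher and 6 lower, the mitochondrially encoded genes 13 of 13 higher (median log2 fold change 0.54), and hnRNP genes 16 of 18 lower and 1 higher (median -0.42). The differences between the lines were not tested.

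**Figure D5:**
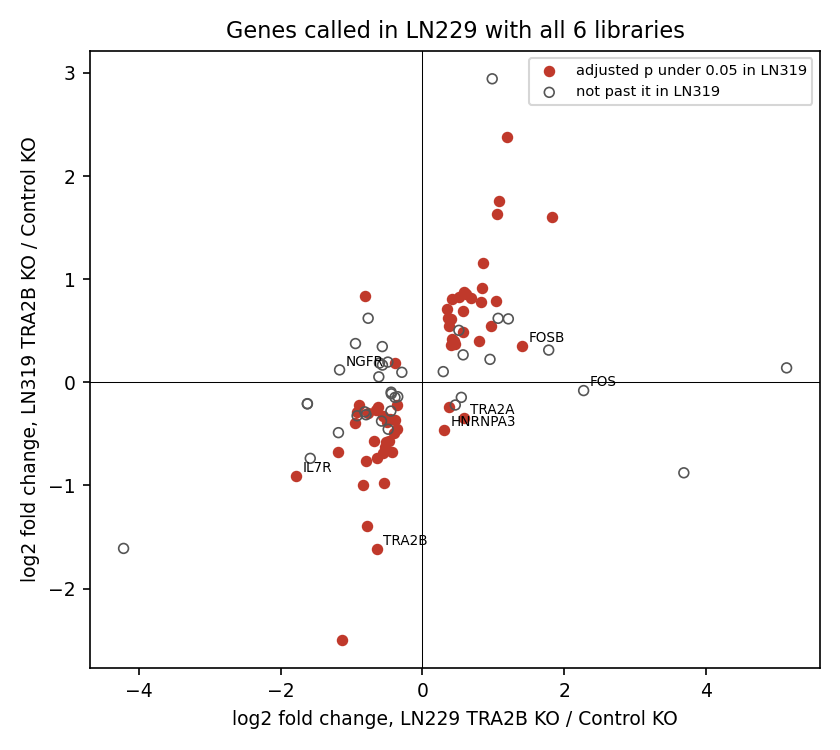
Log2 fold change of *TRA2B* KO against Control KO in LN229 (all 6 libraries, x axis) and LN319 (y axis) for the 96 genes called in LN229 at adjusted p under 0.05 and tested in LN319; filled points were also called in LN319, open points were not. Of these genes 78 have the same sign in both lines, and *TRA2A*, *HNRNPA3* and *NGFR* are among those with opposite signs.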

How the data were processed

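Polyadenylated RNA was sequenced as directional libraries. Per the labels and the study's methods, the authors quantified reads with kallisto 0.48.0 (Gencode v34, GRCh38) and deposited gene-level TPM values; the tables hold symbols and clone names of older annotations, so the release behind them is uncertain. STAR 2.7.3, also named in the submitters' processing notes, was not used here. TPM keeps no depth, so precision is given as replicate spread; the values sum to 956252 to 960161 per LN229 library. The authors' count-based limma-voom could not be repeated.

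Values were scaled by a trimmed mean of log ratios (trims of 30% and 5%) and analysed as log2(TPM + 0.1), so fold changes of low genes are understated. Printed TPM values and overlaps between libraries are from TPM as deposited, before this scaling. All 15 LN229 libraries entered one limma 3.58.1 fit (R 4.3.3) with a mean-variance trend, with two-sided tests and Benjamini-Hochberg adjustment over 18490 genes. DEGs had adjusted p under 0.05 and absolute log2 fold change above 1. In simulated data with the layout of this contrast (17799 genes), 84.5% of 200 genes changed 4-fold were recovered, with 2 false calls. The simulated noise was independent between genes and libraries, with no library displaced as a whole like control replicate 1. These rates therefore check the code and do not give the error rates of the real contrast. Gene roles and positions came from general knowledge and Gencode v44; figures used Python 3.11.15 and matplotlib 3.10.9.

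Named genes were the TRA2 paralogs, RT-PCR targets, called list members and up to 4 further members per list with the largest statistic, the largest protein-coding DEGs without overlap (at least 2 TPM; up to 10 per direction, with and without control replicate 1) and the 10 smallest p against *TRA2A* KO. The comparison, lists and tests were chosen with earlier results of these data known. Alternatives were another pseudocount (0.5, 1), filter (none, 5 TPM), scaling, fit, replicate block, array weights, length and GC correction, and each library left out; leaving out 2 control libraries together was added after seeing the data. The 28 symbols in date form are left unnamed, and some items are not reported here.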

Additional observations from a re-analysis of the deposited data

Results flagged for a closer look

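For 5 named genes every LN229 *TRA2B* KO library lay on one side of its controls and every LN319 *TRA2B* KO library on the other side of its own. These separations are in TPM before scaling, while the fold changes given are after scaling. Whether the separations hold after scaling was not tested. The difference between the lines was not tested, since the tables were made separately. *TRA2A* had a log2 fold change of 0.59 in LN229 and -0.35 in LN319, *HNRNPA3* 0.31 and -0.47, and *FARP1*, a guanine nucleotide exchange factor, 0.37 and -0.24. In the other direction, *PLK3* had -0.49 in LN229 and 0.20 in LN319, and *NGFR* -1.17 and 0.12. In LN319 the adjusted p was 0.0040 for *TRA2A*, 0.0048 for *HNRNPA3* and 0.0039 for *FARP1*, and *PLK3* (0.051) and *NGFR* (0.56) did not pass. Of all genes 18.6% were called higher and 24.0% lower in LN319. *FARP1*, *PLK3* and *NGFR* lost their LN229 calls when any library other than control replicate 1 was left out, with adjusted p up to 0.15, 0.19 and 0.16, and *HNRNPA3* when any but control replicate 1 or *TRA2B* KO replicate 1 was left out, with adjusted p up to 0.098.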

How the results depend on the processing

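The 25 DEGs of *TRA2B* KO against Control KO became 13 with a pseudocount of 1, 49 with quantile normalization (16 higher, 33 lower), 195 with a replicate block (93 higher, 102 lower), 777 with array weights, 105 with no minimum fold change and 816 without both Luc Control KO 1 and TRA2B-OE Control KO 1, an alternative added after seeing the data. A fit of the compared groups alone called 0 in limma, with 3530 genes at unadjusted p under 0.05. Leaving out 1 library gave 1 to 701. The split of 12 higher and 13 lower was 10 and 3 with a pseudocount of 1, 11 and 6 without filtering, 9 and 18 when at least 5 TPM was required, and 9 and 12 with no trend. The remaining alternatives gave 17 to 27 DEGs. Same-numbered Control KO and *TRA2B* KO libraries had deviations correlated at -0.013, -0.085 and -0.017, so the replicate numbers were not treated as pairs. No control correlated best with the knockout of its own number. These correlations do not cover the Luc and TRA2B-OE controls, whose replicate 1 libraries both stood apart, at positions of 0.84 and 0.48. The 1371 DEGs against *TRA2A* KO became 896 with a pseudocount of 1, 792 when at least 5 TPM was required and 6296 at any fold change, and 1060 to 1530 with 1 library left out.

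*TRA2B* did not pass without filtering (log2 fold change -0.62, adjusted p = 0.11), with only the groups compared (-0.64, 0.17) or with no trend (-0.64, 0.052), and ranged from -0.71 to -0.59 with 1 library left out. *TRA2A* did not pass with only the groups compared (0.59, adjusted p = 0.17), and ranged from 0.56 to 0.62 with 1 library left out. Over 44 other named genes and the alternatives tried, 789 values held 0 reversed directions, with 150 calls lost and 69 gained; for the 10 genes against *TRA2A* KO all 180 values kept direction and call. With array weights 41 of 54 G2/M genes and 36 of 42 S phase genes were lower and 25 of 30 interferon-stimulated genes higher; Control KO replicate 1 had a weight of 0.23. Cause was not tested for any of these shifts. TPM without counts gives no limit for single values.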
